A study of Mus musculus with 12 samples.

Results

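A set of 8 genes of procollagen maturation were followed across skin of C3H/HeJ mice in 4 conditions, with 3 RNA-seq libraries for each. The genes were chosen by name, with earlier results of these data known: P4ha1, P4ha2, P4ha3, Serpinh1, Pcolce, Bmp1, Adamts2 and Adamts14. They are 8 of the 23359 genes in the deposited table. All 8 were found there. The 4 conditions were fibrotic skin that had received CD36highCD90+ fibroblasts and was taken at 20 weeks (treated), untreated fibrotic skin at 20 weeks, the same at 6 weeks, and normal skin, for which no time is given. Mice of every condition carry the C3H/HeJ strain background. The labels say neither how the fibrosis was induced nor whether each library came from a separate mouse, so p-values measure the spread between these libraries. The skin was macrodissected. Values are FPKM, fragments scaled to transcript length and to the fragments mapped in the library, so levels can be set side by side between genes.

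Fibrillar collagens are made as procollagens, with a propeptide at each end of the chain. In the endoplasmic reticulum, collagen prolyl 4-hydroxylase hydroxylates prolines, which lets the triple helix form and hold at body temperature. The enzyme pairs a catalytic alpha subunit (P4ha1, P4ha2 or P4ha3) with P4hb, protein disulfide isomerase. The chaperone HSP47, encoded by Serpinh1, binds the folded helix and travels with it. Outside the cell or on the way out, ADAMTS2, ADAMTS3 and ADAMTS14 remove the N-terminal propeptide, while BMP1 and the related tolloid-like proteinases remove the C-terminal one with help from the procollagen C-proteinase enhancer encoded by Pcolce. Without these cuts, collagen molecules do not assemble into normal fibrils, and loss of ADAMTS2 causes fragile skin in several mammals.

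The promoters of 4 of the genes are shown here because these genes form the pairs that moved apart in fibrotic skin: P4ha1 and P4ha2 among the hydroxylase subunits, Adamts2 and Adamts14 among the N-proteinases. P4ha1 and P4ha2 are also known as targets of the hypoxia-inducible factors (HIF). Each sequence runs 5′ to 3′ on the gene's strand from 250 bases before to 50 bases after the RefSeq transcription start, in build GRCm38.p6. Capitals mark the HIF core letters ACGTG or GCGTG read on either strand, where CACGTG would count on both strands. The windows lie at chr10:59323046-59323345 on the plus strand (P4ha1), chr11:54100674-54100973 on the plus strand (P4ha2), chr11:50601835-50602134 on the plus strand (Adamts2) and chr10:61273370-61273669 on the minus strand (Adamts14).
P4ha1: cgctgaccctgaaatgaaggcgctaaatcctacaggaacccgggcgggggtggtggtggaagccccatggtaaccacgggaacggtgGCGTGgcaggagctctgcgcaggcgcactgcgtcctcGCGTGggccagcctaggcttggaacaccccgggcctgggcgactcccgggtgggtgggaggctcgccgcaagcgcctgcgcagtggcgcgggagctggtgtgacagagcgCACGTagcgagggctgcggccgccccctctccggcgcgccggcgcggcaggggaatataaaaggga
P4ha2: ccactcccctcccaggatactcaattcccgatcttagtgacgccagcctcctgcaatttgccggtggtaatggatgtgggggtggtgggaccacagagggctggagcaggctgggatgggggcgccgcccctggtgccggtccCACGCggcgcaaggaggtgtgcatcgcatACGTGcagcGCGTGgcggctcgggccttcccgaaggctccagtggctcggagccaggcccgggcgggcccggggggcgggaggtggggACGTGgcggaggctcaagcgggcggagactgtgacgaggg
Adamts2: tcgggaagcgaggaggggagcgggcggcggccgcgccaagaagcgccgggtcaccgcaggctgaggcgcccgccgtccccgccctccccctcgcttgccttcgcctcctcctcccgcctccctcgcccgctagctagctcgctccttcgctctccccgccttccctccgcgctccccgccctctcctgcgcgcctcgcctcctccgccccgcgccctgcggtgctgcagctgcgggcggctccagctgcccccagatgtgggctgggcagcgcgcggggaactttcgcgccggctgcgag
Adamts14: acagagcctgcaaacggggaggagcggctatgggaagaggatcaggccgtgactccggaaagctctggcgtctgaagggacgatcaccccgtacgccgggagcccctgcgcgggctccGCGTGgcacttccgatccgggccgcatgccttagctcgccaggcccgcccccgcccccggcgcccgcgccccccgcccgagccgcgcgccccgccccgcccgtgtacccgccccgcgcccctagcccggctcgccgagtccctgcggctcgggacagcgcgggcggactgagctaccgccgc
The P4ha1 window held 3 HIF cores, the P4ha2 window 4, the Adamts14 window 1 and the Adamts2 window 0. Over the 32851 promoters of the same length, 43.8% held at least 1 core, 8.93% at least 3 and 3.86% at least 4. These 4 windows were rich in G and C, at 70.3% for P4ha1, 70.3% for P4ha2, 77.3% for Adamts2 and 76.7% for Adamts14, against a median of 52.7% over all promoters, and both core motifs hold a CG. Serpinh1 and Pcolce had 1 core each and P4ha3 had 0, and 7 of the 8 genes matched the promoter table. Bmp1 is named only. A match of letters is a description and not a binding site.

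In GRCm38 with the GENCODE M21 annotation, all 8 are protein-coding. P4ha1 lies at chr10:59323296-59373304 (plus strand) and Adamts14 at chr10:61197112-61273438 (minus strand) on the same chromosome. P4ha2 lies at chr11:54100095-54131665 (plus strand) and Adamts2 at chr11:50602084-50807573 (plus strand). P4ha3 lies at chr7:100285520-100319699 (plus strand) and Serpinh1 at chr7:99345376-99353239 (minus strand). Pcolce lies at chr5:137605103-137613784 (minus strand) and Bmp1 at chr14:70474558-70520234 (minus strand). Pcolce overlaps Fbxo24 on its own strand, which averaged 0.32 FPKM over the 12 libraries, and Pcolce and Adamts2 also overlap opposite-strand transcripts. Whether counting used strand is not stated, so reads of such partners cannot be told apart.

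The table gives no counts, so sequencing depth is unknown, and 12658 to 13364 genes per library reached 1 FPKM. All 12 dermal fibroblast markers and all 8 basal keratinocyte markers reached 1 FPKM in every library. The summed fibroblast markers ran from 416 to 667 FPKM in treated skin, 214 to 555 in fibrotic skin at 20 weeks, 429 to 994 in fibrotic skin at 6 weeks and 493 to 791 in normal skin, so the conditions overlapped. The summed basal keratinocyte markers ran from 5209 to 8359, 6027 to 8482 and 7771 to 9114 FPKM in the treated, 20-week fibrotic and 6-week fibrotic libraries. All were above the 3999 to 4331 of normal skin. Taken singly, 1 of the 8 markers was higher and 4 lower than in normal skin at 20 weeks (limma adjusted p under 0.05). At 6 weeks 2 were higher and 5 lower. Over all genes 15.3% were higher and 18.2% lower at 20 weeks, and 17.6% and 21.7% at 6 weeks. The sums thus do not give the direction of the typical marker. Treated replicates 1 and 3 were the least alike of any pair within a group, at a correlation across genes of 0.876. Replicate 2 correlated with them at 0.919 and 0.935, while pairs in the other groups reached 0.925 to 0.969. Replicate 1 had the lowest endothelial marker sum of any library, 41.2 FPKM, and the highest cornified-envelope sum of the treated group, 37318 FPKM. Replicate 3 had the highest endothelial, adipocyte and hair shaft sums of any library, 188, 5800 and 9855 FPKM. Its cornified-envelope sum was the lowest of any library, 7133 FPKM.

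The genes differed widely in level. Serpinh1 was the most abundant of the 8, with a median of 51.0 FPKM over the 12 libraries, followed by Bmp1 at 18.6 and Pcolce at 16.3 FPKM. P4ha1 had a median of 8.42 FPKM, P4ha2 6.57, Adamts14 4.99 and Adamts2 4.67 FPKM. P4ha3 had a median of 0.50 FPKM. It was tested only because 4 libraries reached 1 FPKM, treated replicate 2, fibrotic 20-week replicates 1 and 2 and fibrotic 6-week replicate 1, and none of these was normal skin. The other 7 genes reached 1 FPKM in all 12 libraries.

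**Figure D1:**
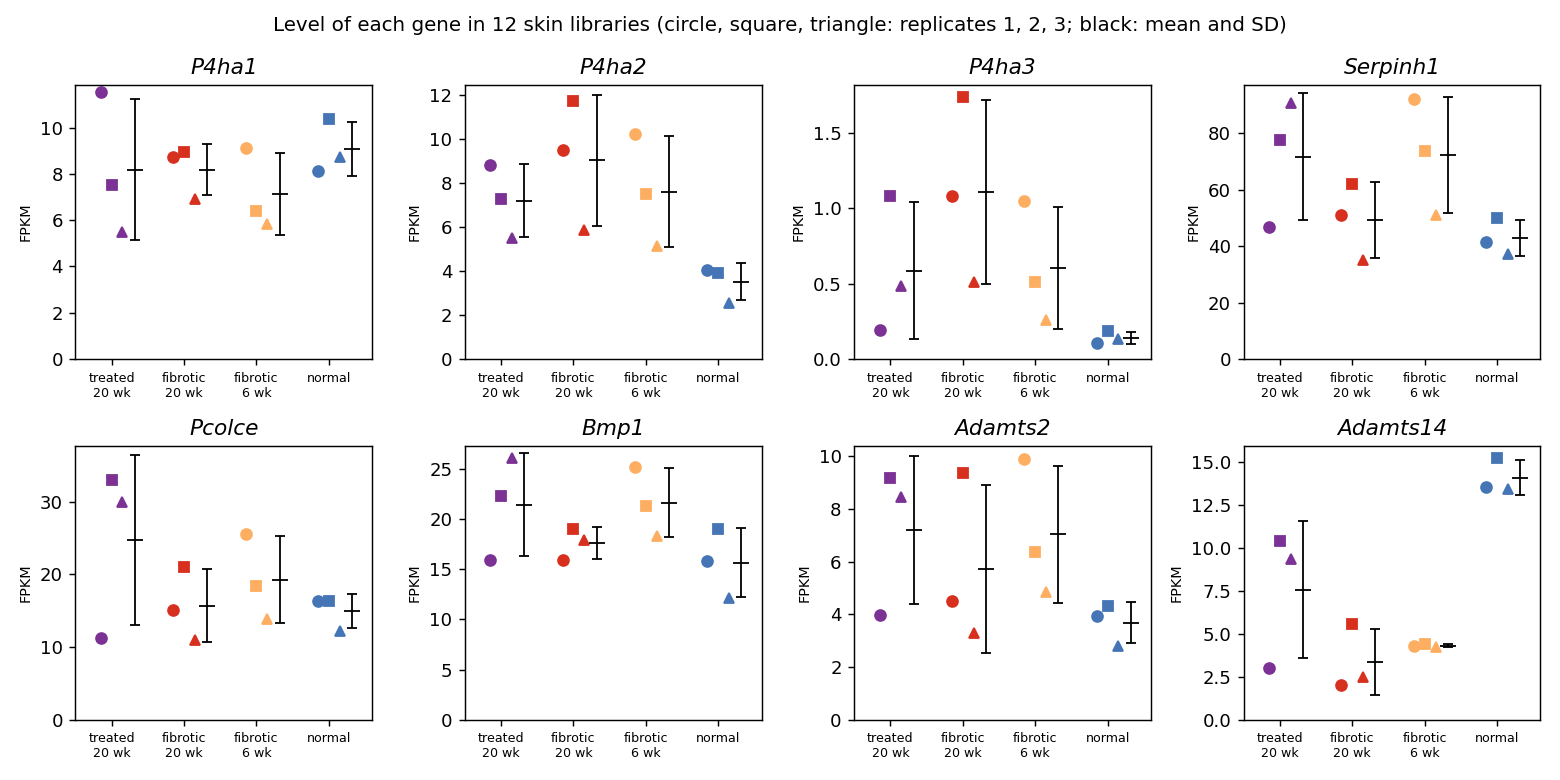
FPKM (linear axis from 0) of each of the 8 genes by condition, treated skin left and normal skin right; circles, squares and triangles are replicates 1, 2 and 3, and black marks give the group mean and SD. Adamts14 sat between 13.4 and 15.2 FPKM in normal skin, above every other library, and P4ha2 between 2.55 and 4.05 FPKM, below every other library.

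Fibrotic skin was first set against normal skin, at 20 and at 6 weeks. P4ha2 rose and Adamts14 fell at both times, and P4ha3 rose at 20 weeks. P4ha1, Serpinh1, Pcolce, Bmp1 and Adamts2 passed the test at neither time. At 20 weeks 3 of the 8 genes were called by limma at an adjusted p under 0.05, 2 higher and 1 lower, where 33.5% of all 13761 tested genes were called, 15.3% higher and 18.2% lower. At 6 weeks 2 of the 8 were called, 1 higher and 1 lower, where 39.3% of all genes were, 17.6% higher and 21.7% lower. P4ha3 passed the filter on low values only through fibrotic and treated libraries, and without it 2 of 7 were called at 20 weeks. With or without it the share of called genes was near the background at both times. Libraries of the 2 groups did not overlap for 3 of the 8 genes at 20 weeks and 5 at 6 weeks, as for 54.6% and 58.1% of all genes. P4ha3 is among them at both times. Without it P4ha2 and Adamts14 remain at 20 weeks, and P4ha2, Serpinh1, Adamts2 and Adamts14 at 6 weeks. Among the 8, 3 had an unadjusted p under 0.05 at 20 weeks and 4 at 6 weeks, against 45.7% and 49.5% of all genes. With muscle, hair shaft, cornified-envelope and short RNA genes removed and the rest rescaled to equal totals, the median of all genes moved to -0.30 at 20 weeks, against -0.04 as deposited, and to -0.32 at 6 weeks, against -0.05. The calls among all genes were then 18.1% higher at 20 weeks and 20.0% at 6 weeks, against 45.6% and 44.9% as deposited. Fewer cells of a type and less RNA per cell cannot be told apart in these bulk samples.

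Among the alpha subunits of the hydroxylase, P4ha2 was the 1 called at both times. P4ha2 had 9.49, 11.7 and 5.86 FPKM in fibrotic skin at 20 weeks and 10.2, 7.48 and 5.13 FPKM at 6 weeks, against 4.05, 3.93 and 2.55 FPKM in normal skin. Every fibrotic library was above every normal one. On the log2(FPKM + 1) scale P4ha2 was higher by 1.12 ± 0.28 at 20 weeks (SE, n = 3 each, limma adjusted p = 0.0132) and by 0.91 ± 0.28 at 6 weeks (adjusted p = 0.0273). The 20-week call was lost without fibrotic 20-week replicate 2 (adjusted p = 0.0503) or normal replicate 3 (0.0518). The 6-week call was lost without fibrotic 6-week replicate 1 (0.0983), replicate 2 (0.0735) or normal replicate 3 (0.091). After the rescaling the 6-week difference was 0.66 and did not pass (0.0689), while the 20-week call held. The basal keratinocyte sums separated the same libraries from normal skin as P4ha2 did. The median log2 difference of those markers was -0.44 at 20 weeks and -0.73 at 6 weeks, opposite to the sums. The part of keratinocytes in the P4ha2 difference was not tested.

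P4ha1, the main alpha subunit of most cell types, had 8.72, 8.94 and 6.91 FPKM in fibrotic skin at 20 weeks and 9.13, 6.41 and 5.82 FPKM at 6 weeks, against 8.13, 10.4 and 8.74 FPKM in normal skin. The fibrotic and normal values overlapped at both times. The log2 difference was -0.14 at 20 weeks (95% interval -0.65 to 0.38, adjusted p = 0.679) and -0.33 at 6 weeks (-0.84 to 0.18, adjusted p = 0.278). After the rescaling the 6-week difference was -0.60 and passed as lower (adjusted p = 0.0389).

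P4ha3, the least abundant alpha subunit, had 1.08, 1.73 and 0.51 FPKM in fibrotic skin at 20 weeks and 1.05, 0.51 and 0.26 FPKM at 6 weeks, against 0.11, 0.19 and 0.13 FPKM in normal skin. The groups did not overlap at either time. The log2 difference was 0.84 ± 0.27 at 20 weeks (SE, n = 3 each, adjusted p = 0.0356) and 0.46 ± 0.27 at 6 weeks (adjusted p = 0.193), and the added 1 FPKM makes both smaller than the ratio of the levels. The 20-week call was lost without fibrotic 20-week replicate 1 (adjusted p = 0.0885) or 2 (0.125), or normal replicate 1 (0.0914), 2 (0.0694) or 3 (0.0848).

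The make-up of the alpha subunit mRNA differed between the conditions. P4ha2 supplied 48.6% ± 4.2 of the summed alpha subunit FPKM in 20-week fibrotic skin and 49.3% ± 3.1 in 6-week fibrotic skin, against 27.5% ± 5.3 in normal skin (SD, n = 3 each). P4ha1 supplied 45.7% ± 6.1 and 47.1% ± 4.2 in fibrotic skin at 20 and 6 weeks, against 71.4% ± 5.2 in normal skin. The 2 subunits thus stood at like levels in fibrotic skin, while P4ha1 led in all 3 normal libraries, at 66.2% to 76.5%. The P4ha2 share was higher by 21.1 points at 20 weeks and by 21.8 points at 6 weeks, and by 18.5 to 24.6 points with any 1 library left out. With 3 libraries a group an exact permutation test cannot go below p = 0.10, so shares were not tested. P4hb, the shared partner subunit, rose as well: it averaged 305 ± 53.4 FPKM in 20-week fibrotic skin and 313 ± 27.7 in 6-week fibrotic skin, against 161 ± 9.01 FPKM in normal skin (adjusted p = 0.00567 and 0.00358).

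**Figure D2:**
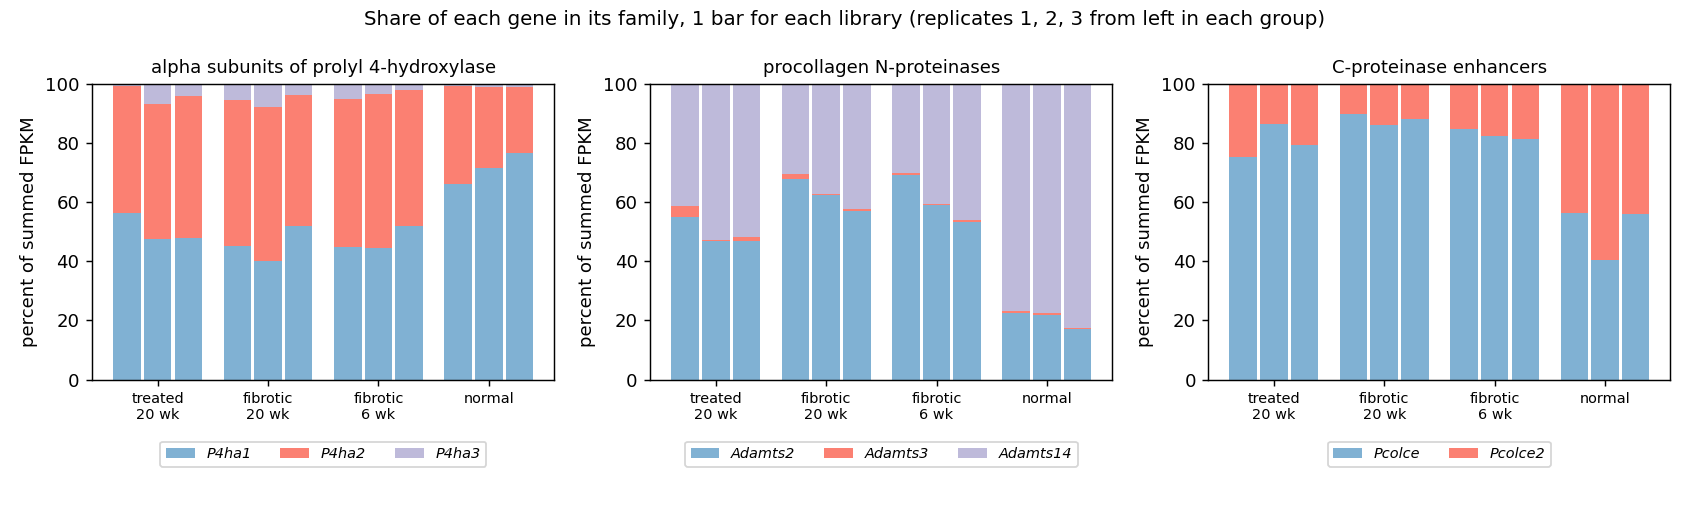
Share (percent of summed FPKM) of each gene in its family, 1 stacked bar for each of the 12 libraries, with treated skin left and normal skin right. P4ha2 and Adamts2 took larger shares in every fibrotic and treated library than in any normal library, and Adamts14 and Pcolce2 smaller ones.

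Serpinh1, the collagen chaperone, had 50.9, 61.9 and 35.2 FPKM in fibrotic skin at 20 weeks and 92.2, 73.9 and 51.1 FPKM at 6 weeks, against 41.4, 49.9 and 37.3 FPKM in normal skin. The 6-week libraries were all above normal skin and the 20-week ones overlapped it. The log2 difference at 6 weeks was 0.71 (95% interval 0.06 to 1.36, adjusted p = 0.0758) and did not pass, although it did without treated replicate 1 (0.71, adjusted p = 0.0368) or without fibrotic 6-week replicate 3 (0.94, adjusted p = 0.0398). It also passed when only the 6 libraries compared were fitted (adjusted p = 0.0422) and with array weights by group (0.0394). At 20 weeks it was 0.17 (-0.48 to 0.82, adjusted p = 0.679), and -0.12 after the rescaling.

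Among the genes of propeptide removal, Adamts14 was the 1 called at both times. Adamts14 had 2.03, 5.59 and 2.47 FPKM in fibrotic skin at 20 weeks and 4.32, 4.40 and 4.21 FPKM at 6 weeks, against 13.5, 15.2 and 13.4 FPKM in normal skin. Every fibrotic library was below every normal one. On the log2 scale it was lower by 1.87 at 20 weeks, a difference of -1.87 ± 0.38 (SE, n = 3 each, adjusted p = 0.00541), and the difference at 6 weeks was -1.50 ± 0.38 (adjusted p = 0.0117). Both calls held with each of the 12 libraries left out, at adjusted p of at most 0.0239 and 0.0363, and under every other setting run. The basal keratinocyte sums were above normal skin in the same libraries, at 6027 to 8482 FPKM at 20 weeks and 7771 to 9114 FPKM at 6 weeks. Normal skin had 3999 to 4331 FPKM. The median log2 difference of the same markers was instead below 0, as for Adamts14, at -0.44 at 20 weeks and -0.73 at 6 weeks. The part of keratinocytes was not tested.

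Adamts2, the other N-proteinase of the 8, had 4.49, 9.36 and 3.31 FPKM in fibrotic skin at 20 weeks and 9.90, 6.38 and 4.84 FPKM at 6 weeks, against 3.94, 4.32 and 2.80 FPKM in normal skin. All 6-week libraries were above normal skin and the 20-week ones overlapped it. The log2 difference was 0.43 at 20 weeks (95% interval -0.39 to 1.26, adjusted p = 0.393) and 0.74 at 6 weeks (-0.08 to 1.57, adjusted p = 0.133). Adamts3, the remaining enzyme of this kind, stayed at 0.28 FPKM or less in every library and was not tested.

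In fibrotic skin Adamts2 was thus the leading N-proteinase mRNA, and in normal skin Adamts14 was. Adamts14 made up 36.7% ± 5.9 of the summed Adamts2, Adamts3 and Adamts14 FPKM in 20-week fibrotic skin and 38.9% ± 8.2 in 6-week fibrotic skin, against 79.0% ± 3.0 in normal skin (SD, n = 3 each). Adamts2 made up 62.4% ± 5.5 at 20 weeks and 60.3% ± 8.0 at 6 weeks, against 20.6% ± 2.9 in normal skin. The sum of the 3 enzymes averaged 9.15 ± 5.09 FPKM at 20 weeks and 11.4 ± 2.68 at 6 weeks, against 17.8 ± 1.7 FPKM in normal skin. Every fibrotic library summed to less than every normal one, from 5.82 to 15 FPKM against 16.3 to 19.7 FPKM.

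Bmp1, the C-proteinase, was called in none of the 5 comparisons by limma with equal weight for every library. It had 15.9, 19.0 and 17.9 FPKM in fibrotic skin at 20 weeks and 25.2, 21.3 and 18.3 FPKM at 6 weeks, against 15.8, 18.9 and 12.1 FPKM in normal skin. The values overlapped at both times, with log2 differences of 0.18 at 20 weeks (95% interval -0.26 to 0.62, adjusted p = 0.517) and 0.45 at 6 weeks (0.01 to 0.89, adjusted p = 0.0945). The 6-week difference passed without treated replicate 1 (adjusted p = 0.0455) and with array weights by group (adjusted p = 0.0457). Bmp1 held 92.5% or more of the mean summed FPKM of Bmp1, Tll1 and Tll2 in every condition. Tll1 ran from 0.45 to 1.36 FPKM, and Tll2 did not exceed 0.08 FPKM.

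Pcolce, the enhancer of that cut, had 15.1, 21 and 11 FPKM in fibrotic skin at 20 weeks and 25.6, 18.4 and 13.8 FPKM at 6 weeks, against 16.3, 16.3 and 12.2 FPKM in normal skin. The groups overlapped, with log2 differences of 0.03 (95% interval -0.81 to 0.88, adjusted p = 0.955) and 0.32 (-0.53 to 1.16, adjusted p = 0.525). Its relative Pcolce2, also an enhancer of BMP1, fell: it had 1.73, 3.41 and 1.46 FPKM at 20 weeks and 4.58, 3.98 and 3.16 FPKM at 6 weeks, against 12.6, 23.8 and 9.66 FPKM in normal skin. The log2 difference of Pcolce2 was -2.31 ± 0.34 at 20 weeks (adjusted p = 0.00142) and -1.65 ± 0.34 at 6 weeks (adjusted p = 0.00465). Pcolce2 made up 12% ± 1.9 of the summed pair at 20 weeks and 17.2% ± 1.8 at 6 weeks, against 49.0% ± 9.0 in normal skin. This pair was chosen for a share after its values had been seen.

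**Figure D3:**
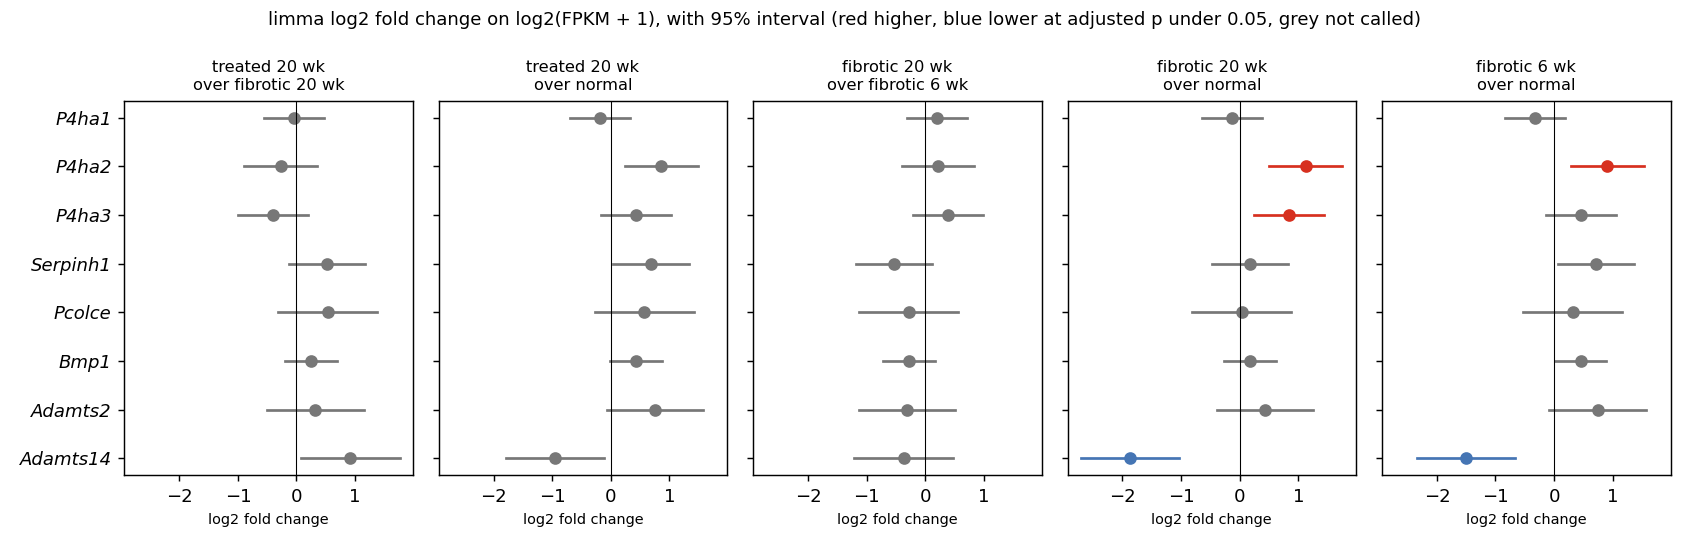
Log2 difference on the log2(FPKM + 1) scale with its 95% interval for each of the 8 genes in the 5 comparisons; red points passed as higher and blue as lower at adjusted p under 0.05, and grey points did not pass. Coloured points lie at P4ha2 and Adamts14 in both comparisons of fibrotic with normal skin and at P4ha3 at 20 weeks.

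Collagens that these proteins work on rose as well. Col1a1 averaged 100 ± 45.7 FPKM in 20-week fibrotic skin and 114 ± 32.4 in 6-week fibrotic skin, against 26.1 ± 9.94 FPKM in normal skin, with log2 differences of 1.86 (adjusted p = 0.0104) and 2.11 (adjusted p = 0.00502). Col1a2 was higher by 1.09 at 20 weeks (adjusted p = 0.0498, and up to 0.163 with 1 library left out) and by 1.78 at 6 weeks (adjusted p = 0.0057). Col3a1 was higher by 1.36 at 6 weeks (adjusted p = 0.0479), a call lost in 8 of the 12 fits with 1 library left out, at adjusted p of up to 0.152. At 20 weeks the Col3a1 difference was 0.39 and did not pass (adjusted p = 0.565). After the rescaling Col1a2 at 20 weeks (0.79, adjusted p = 0.13) and Col3a1 at 6 weeks (1.06, adjusted p = 0.102) did not pass.

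Each gene was also expressed as a log2 ratio to the mean of Col1a1, Col1a2 and Col3a1 in the same library. At 6 weeks all 8 ratios were lower in fibrotic than in normal skin with no overlap. Col1a1, Col1a2 and Col3a1 were themselves higher by 2.11, 1.78 and 1.36 at 6 weeks, and by 1.86, 1.09 and 0.39 at 20 weeks. A gene of unchanged level thus also gives a lower ratio, and the share of all genes that do so was not counted. The Adamts14 ratio averaged -5.19 in fibrotic skin at 6 weeks, against -1.94 in normal skin, a difference of -3.25. The P4ha1 ratio differed by -2.08, Pcolce by -1.43, Bmp1 by -1.30, Serpinh1 by -1.04, Adamts2 by -1.01 and P4ha2 by -0.84. At 20 weeks the ratios of Adamts14 (-2.99), P4ha1 (-1.25), Pcolce (-1.08), Serpinh1 (-0.94) and Adamts2 (-0.68) were again lower in fibrotic skin without overlap. The P4ha2 ratio at 20 weeks overlapped normal skin, at a difference of 0.01. The P4ha3 ratio depends on the value added before taking logs: at 6 weeks its difference was -1.29 with 1 FPKM added and -0.38 with 0.1 FPKM added, and at 20 weeks it was -0.27 and 1.07. The ratios share their denominator and were not tested, and leaving out 1 library moved the 6-week Adamts14 difference between -3.49 and -3.02.

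**Figure D4:**
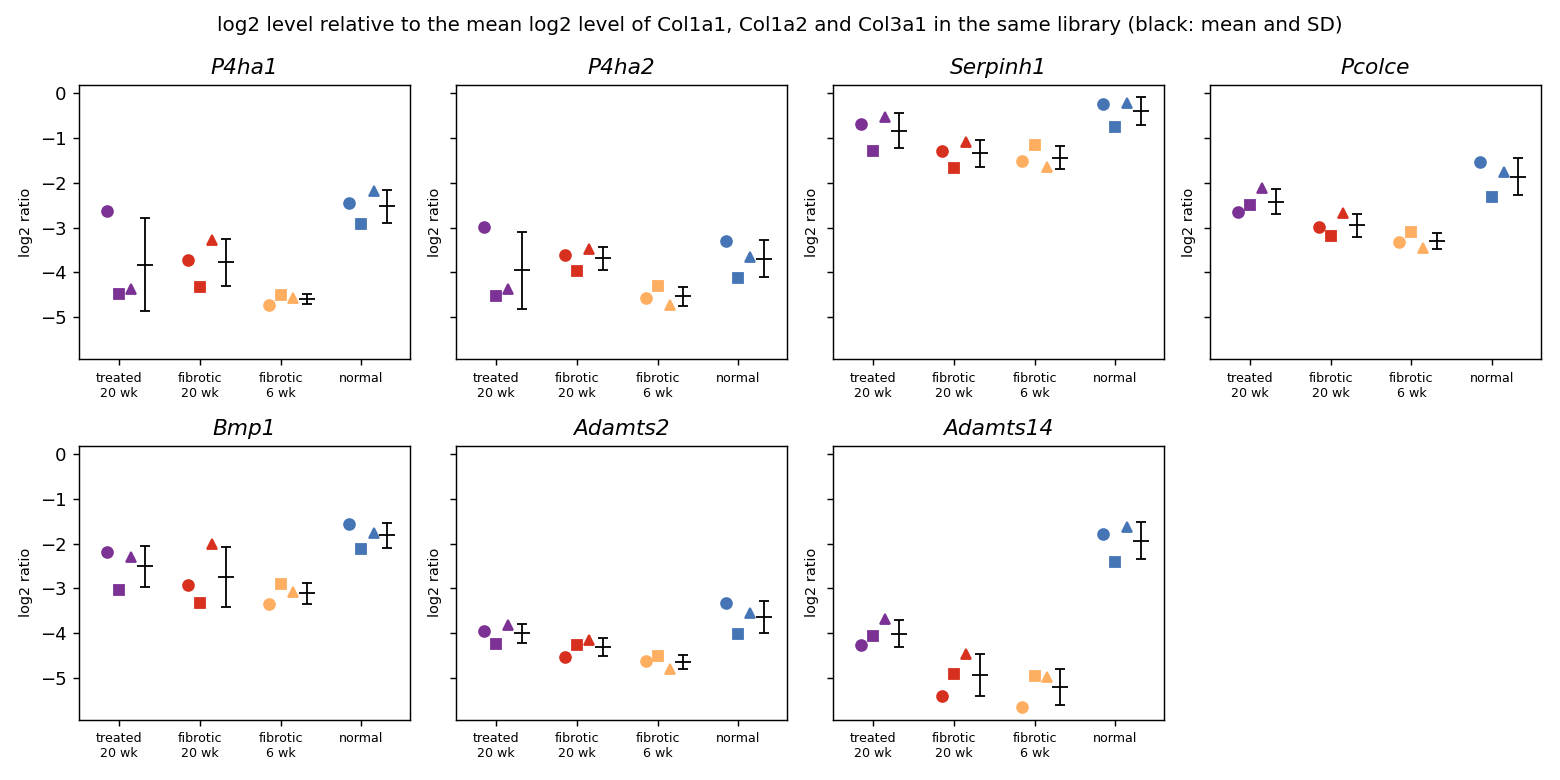
Log2 ratio of each gene but P4ha3 to the mean of Col1a1, Col1a2 and Col3a1 in each library, treated skin left and normal skin right, with black marks for the group mean and SD. The 6-week fibrotic points of Adamts14 lie at -5.65 to -4.95, below the normal points at -2.41 to -1.63.

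Fibrotic skin at 20 weeks was then set against fibrotic skin at 6 weeks, as a test of time. None of the 8 genes was called by limma, and 0 had an unadjusted p under 0.05, where 0.0363% of all tested genes were called and 19.9% had an unadjusted p under 0.05. All 8 genes overlapped between the times, where 30.9% of all genes did not. The log2 differences ran from -0.54 for Serpinh1 (95% interval -1.19 to 0.11, adjusted p = 0.336) to 0.38 for P4ha3 (-0.21 to 0.98, adjusted p = 0.458). Relative to procollagen mRNA the hydroxylase subunits were higher at 20 weeks than at 6 weeks without overlap, by 0.83 for P4ha1 and 0.85 for P4ha2. Much of this lay in the denominator: Col1a1, Col1a2 and Col3a1 differed by -0.25, -0.69 and -0.97, and P4ha1 and P4ha2 themselves by 0.19 and 0.22. The share of all genes with such a ratio was not counted.

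Treated skin was set against untreated fibrotic skin of the same time, 20 weeks. No sham-treated group is in the series, so this comparison covers the treatment as a whole. None of the 8 genes was called by limma, where 15.3% of all tested genes were, and 1, Adamts14, had an unadjusted p under 0.05, as did 34.7% of all genes. All 8 overlapped between the groups, where 32.2% of all genes did not. Adamts14 had 3.0, 10.4 and 9.35 FPKM in treated skin, against 2.03, 5.59 and 2.47 FPKM in fibrotic skin at 20 weeks. Treated replicates 2 and 3 were above all 3 fibrotic libraries and treated replicate 1 was among them. The log2 difference was 0.92 (95% interval 0.08 to 1.76, adjusted p = 0.116). Relative to procollagen mRNA, Adamts14 was higher in treated skin by 0.91 and Pcolce by 0.53, both without overlap, and the share of all genes that did so was not counted.

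The treated group was the most variable, and its replicate 1 decided several values. Pcolce had 11.3, 32.9 and 29.9 FPKM in treated skin, against 15.1, 21 and 11 FPKM in fibrotic skin at 20 weeks. Serpinh1 had 46.9, 77.5 and 90.7 FPKM in treated skin, against 50.9, 61.9 and 35.2 FPKM in fibrotic skin. For both genes treated replicates 2 and 3 were above all fibrotic libraries and replicate 1 was not. Without treated replicate 1 the log2 differences were 1.0 for Pcolce (adjusted p = 0.0204), 0.79 for Serpinh1 (adjusted p = 0.0456) and 1.40 for Adamts14 (adjusted p = 0.00354), and 3 of the 8 genes were called. Calls over all genes also depended on single libraries: they numbered 2108 with all libraries and 3 to 5226 with 1 left out. The share of all genes called without treated replicate 1 is not given here. The 3 calls of that fit are thus not read as a result about these genes. Treated replicate 1 had the smallest fibroblast, adipocyte and endothelial marker sums of its group, at 416, 1142 and 41.2 FPKM, against 583 to 667, 3081 to 5800 and 146 to 188 FPKM in the other 2 treated libraries. The part of cell make-up in these values was not tested.

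The remaining genes overlapped between treated and fibrotic skin at 20 weeks. P4ha1 had 11.5, 7.54 and 5.50 FPKM in treated skin, P4ha2 8.80, 7.28 and 5.49 FPKM, and P4ha3 0.19, 1.08 and 0.48 FPKM. The log2 differences of these hydroxylase genes were -0.05 (95% interval -0.56 to 0.47) for P4ha1, -0.27 (-0.89 to 0.36) for P4ha2 and -0.41 (-1.0 to 0.19) for P4ha3. Bmp1 had 15.9, 22.3 and 26.0 FPKM in treated skin and Adamts2 had 3.97, 9.19 and 8.45 FPKM. Their log2 differences were 0.25 (-0.20 to 0.69) and 0.32 (-0.50 to 1.15). In treated skin Adamts2 made up 49.5% ± 4.6 of the summed N-proteinase FPKM and Adamts14 48.7% ± 6.4. In fibrotic skin at 20 weeks Adamts2 made up 62.4% ± 5.5 and Adamts14 36.7% ± 5.9. The Adamts2 shares did not overlap, at 46.8% to 54.8% in treated skin against 56.9% to 67.9% in fibrotic skin, while the Adamts14 shares overlapped.

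Against normal skin, treated skin gave no call among the 8 genes, where 20.7% of all tested genes were called by limma. Of the 8, 3 had an unadjusted p under 0.05, as did 37.2% of all genes, and P4ha2, P4ha3 and Adamts14 did not overlap, as for 37.5% of all genes. P4ha3 passed the filter on low values only through fibrotic and treated libraries, so its place above normal skin is no separate result. P4ha2 was above normal skin in all 3 treated libraries, with a log2 difference of 0.86 (95% interval 0.24 to 1.48, adjusted p = 0.0532), and its call moved past the threshold without fibrotic 20-week replicate 3 (adjusted p = 0.0417) or fibrotic 6-week replicate 3 (0.0464). Adamts14 was below normal skin in all 3, with a difference of -0.95 (-1.79 to -0.11, adjusted p = 0.0964). Serpinh1 differed by 0.69 (0.04 to 1.34, adjusted p = 0.116). Without treated replicate 1, Serpinh1 (0.96, adjusted p = 0.035), Pcolce (1.03, adjusted p = 0.0309) and Bmp1 (0.62, adjusted p = 0.0404) were called higher. Calls over all genes numbered 2855 with all libraries and 851 to 3101 with 1 left out. The share of all genes called without treated replicate 1 is not given here, so the calls of that fit are not read as a result about the 8 genes. The P4ha2 share of alpha subunit FPKM in treated skin, 45.5% ± 2.5, and the Adamts14 share of N-proteinase FPKM, 48.7% ± 6.4, lay on the fibrotic side of the normal values of 27.5% ± 5.3 and 79.0% ± 3.0 without overlap.

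Across the 4 conditions Adamts14 averaged 7.57 ± 4.0 FPKM in treated skin, 3.36 ± 1.94 in 20-week and 4.31 ± 0.10 in 6-week fibrotic skin, and 14.1 ± 1.02 in normal skin (SD, n = 3 each). Normal skin stood highest and clear of its neighbour, treated skin, while treated and 6-week fibrotic skin overlapped, as did the fibrotic groups. P4ha2 averaged 7.19 ± 1.66 FPKM in treated skin, 9.02 ± 2.96 in 20-week and 7.61 ± 2.54 in 6-week fibrotic skin, and 3.51 ± 0.83 in normal skin, which was lowest and clear of the other 3, and those overlapped. Bmp1 and Serpinh1 had their 2 highest means in fibrotic skin at 6 weeks and in treated skin, and all neighbours in their order overlapped. Serpinh1 averaged 71.7 ± 22.5 FPKM in treated skin, 49.3 ± 13.4 in fibrotic skin at 20 weeks, 72.4 ± 20.6 at 6 weeks and 42.9 ± 6.42 in normal skin.

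The 8 genes fell into patterns over the 12 libraries, given as Pearson r of log2(FPKM + 1) and as a description, since the libraries share conditions and scaling. Serpinh1, Pcolce, Bmp1 and Adamts2 moved together, with r from 0.80 to 0.92 between their pairs. P4ha2 and P4ha3 had r = 0.80, while P4ha1 and P4ha2 had r = 0.16. Adamts14 had r = 0.01 with Adamts2 over the 12 libraries, but 0.82 once each library's deviation from its group mean was taken. The deviations of the 2 N-proteinases thus went together when pooled over the conditions, though not in each. In 6-week fibrotic skin Adamts14 stayed at 4.21 to 4.40 FPKM while Adamts2 ran from 4.84 to 9.90 FPKM. The deviations of Adamts14 also had r = 0.84 with Pcolce and 0.70 with Serpinh1, so this is not particular to the pair. With P4ha1 they had r = -0.45.

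Among 12751 candidate genes, the nearest to Serpinh1 was Eln, which encodes elastin (r = 0.95). The nearest to Pcolce was Serpinf1 (0.97), the nearest to Bmp1 was Fbln5, which encodes the elastic fibre protein fibulin-5 (0.95), and the nearest to Adamts2 were Col6a2 (0.93) and Col6a1 (0.92), both chains of collagen VI. P4ha2 was most like Pcdhgc3 (0.95), Itpk1 (0.94) and Sfn, which encodes stratifin of keratinocytes (0.92). Adamts14 was most like Krt15, a keratin of basal and hair bulge keratinocytes (0.97), Ecm2 (0.97) and Cdon (0.97). P4ha3 was most like Col8a1 (0.87), and P4ha1 most like Casp4 (0.84).

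The rest of the pathway was read from lists. These lists and the low-oxygen list below were chosen with earlier results of these data known. Their counts are thus descriptions, and a share above that of all genes is no independent result. Of 20 tested genes among the other folding and modification enzymes, 5 rose and 1 fell in fibrotic skin at 20 weeks and 10 rose and 1 fell at 6 weeks. Over all tested genes 15.3% rose and 18.2% fell at 20 weeks and 17.6% rose and 21.7% fell at 6 weeks. The list's median log2 difference was 0.18 and 0.46, against -0.04 and -0.05 over all tested genes. With 1 library left out the count that rose ran from 3 to 8 at 20 weeks and from 5 to 11 at 6 weeks. Plod2, the lysyl hydroxylase of collagen telopeptides, had 2.49, 2.88 and 3.33 FPKM in fibrotic skin at 20 weeks and 3.05, 2.79 and 1.80 at 6 weeks, against 0.90, 0.89 and 0.91 FPKM in normal skin (log2 differences 1.03 and 0.88, adjusted p = 0.00136 and 0.00188). Plod2 was also higher in treated skin than in normal skin, by 0.97 (adjusted p = 0.00421). Leprel4, an endoplasmic reticulum protein of the lysyl hydroxylation complex, rose by 1.0 at 20 weeks (adjusted p = 0.00222), and Ppib, the cyclophilin that speeds proline isomerisation, rose by 0.59 at 6 weeks (adjusted p = 0.00336). In treated against fibrotic skin at 20 weeks, 1 of the 20 rose and 2 fell, where 4.45% of all genes rose and 10.9% fell. Plod3 differed by 0.59 (adjusted p = 0.0339), Leprel4 by -1.05 (0.0151) and P4hb by -0.62. P4hb averaged 200 ± 51.2 FPKM in treated skin, against 305 ± 53.4 FPKM. Its call was lost in 11 of the 12 fits with 1 library left out. In the fit of the 6 libraries compared Plod3, Leprel4 and P4hb did not pass (0.128, 0.128 and 0.175).

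Of 19 genes of procollagen export from the endoplasmic reticulum, 4 rose and 2 fell at 20 weeks and 3 rose and 1 fell at 6 weeks. The counts that rose were near the shares over all genes, 15.3% and 17.6%, and those that fell were below 18.2% and 21.7%. With 1 library left out the 2 that fell at 20 weeks ran from 0 to 2. Sec13, an outer coat subunit of COPII vesicles, rose by 0.54 and 0.67 (adjusted p = 0.00121 and 0.000281), Sec24d, a cargo adaptor of that coat, by 0.82 and 0.76 (0.00518 and 0.00603), and Tfg, which organises the export sites, by 0.71 and 0.77 (0.0119 and 0.00701). In treated against fibrotic skin at 20 weeks, 0 of the 19 rose and 6 fell, where 4.45% of all genes rose and 10.9% fell; the 6 ran from 0 to 10 with 1 library left out. Among them Sar1b, the GTPase that starts the coat, differed by -0.78 (adjusted p = 0.0177), Sec24a by -0.40 (0.0224) and Sec16a by -0.55 (0.0245). After the rescaling the Sec24a difference was -0.16 (adjusted p = 0.255) and that of Sec16a -0.29 (0.0835), and neither passed. The 10 pathway genes named by rule in that comparison all lost their calls when only the 6 libraries compared were fitted, at adjusted p from 0.128 to 0.157, and each did so without 1 or another library.

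Of 10 tested genes among the other propeptide proteinases and their helpers, 2 rose and 2 fell at 20 weeks and 2 rose and 3 fell at 6 weeks. These counts were near the shares over all genes, of which 15.3% rose and 18.2% fell at 20 weeks and 17.6% rose and 21.7% fell at 6 weeks. Timp3, an inhibitor of ADAMTS proteinases and metalloproteinases, had 27.7, 32.8 and 34.9 FPKM in fibrotic skin at 20 weeks and 44.3, 31.4 and 41.7 FPKM at 6 weeks, against 111, 108 and 115 FPKM in normal skin. The log2 differences of Timp3 were -1.78 (adjusted p = 0.00167) and -1.50 (adjusted p = 0.00265), and it was higher in treated than in fibrotic skin at 20 weeks by 1.03 (adjusted p = 0.0336), a call lost in the fit of the 6 libraries compared (0.146). Furin, the convertase that activates the ADAMTS and BMP1 zymogens, rose by 0.90 at 20 weeks (adjusted p = 0.00428) and differed from normal skin by 0.89 in treated skin (adjusted p = 0.0089, and 0.0863 in the fit of the 6 libraries compared). Pcsk6, another proprotein convertase, differed by -0.69 at 6 weeks (adjusted p = 0.00506).

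Of 6 tested fibrillar procollagen genes, 2 rose at 20 weeks and 5 at 6 weeks, with medians of 0.74 and 1.42, where 15.3% and 17.6% of all genes rose. With 1 library left out the counts ran from 1 to 2 at 20 weeks, differing in 8 of 12 fits, and from 3 to 5 at 6 weeks. Of 10 tested other substrates of BMP1-type proteinases, 1 rose at 20 weeks and 3 at 6 weeks, against the same 15.3% and 17.6% of all genes. Their counts ran from 0 to 1 and from 1 to 3 with 1 library left out. Bgn, the small proteoglycan biglycan, whose propeptide BMP1 removes, had 103, 112 and 63.7 FPKM in fibrotic skin at 20 weeks and 181, 110 and 80.8 FPKM at 6 weeks, against 37.2, 43.3 and 23.0 FPKM in normal skin. Its log2 differences were 1.41 (adjusted p = 0.0149, and up to 0.0573 with 1 library left out) and 1.78 (adjusted p = 0.00436). Lox, the collagen cross-linking oxidase that BMP1 activates, was called at 6 weeks (0.89, adjusted p = 0.0482), a call lost in 8 of the 12 fits with 1 library left out.

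Of 16 genes known to rise in low oxygen, 13 rose in 20-week fibrotic skin and 10 in 6-week fibrotic skin, with medians of 1.41 and 1.25, and none fell, where 15.3% and 17.6% of all genes rose. With 1 library left out the counts ran from 9 to 13 and from 7 to 11. Car12, a carbonic anhydrase, rose by 2.07 at both times (adjusted p = 0.00217 and 0.00159), Higd1a by 1.87 and 1.80 (adjusted p = 0.00541 and 0.00519), Pfkfb4, a glycolytic regulator, by 1.85 at 20 weeks (adjusted p = 0.00282) and Adm, which encodes adrenomedullin, by 1.43 at 6 weeks (adjusted p = 0.00641). Of the hydroxylase subunits whose promoters are shown above, P4ha2 was called higher at both times and P4ha1 differed by -0.14 and -0.33 without passing. After the rescaling the 6-week P4ha2 difference was 0.66 and did not pass (adjusted p = 0.0689). The part of low oxygen in these differences was not tested. In treated against fibrotic skin at 20 weeks 3 of the 16 fell, where 10.9% of all genes did, with a median of -0.75, and this count ran from 0 to 13 with 1 library left out. Bnip3, a mitophagy receptor, differed by -1.07 (adjusted p = 0.0151) and Higd1a by -1.39 (adjusted p = 0.0366). Both calls are among the 10 lost in the fit of the 6 libraries compared.

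**Figure D5:**
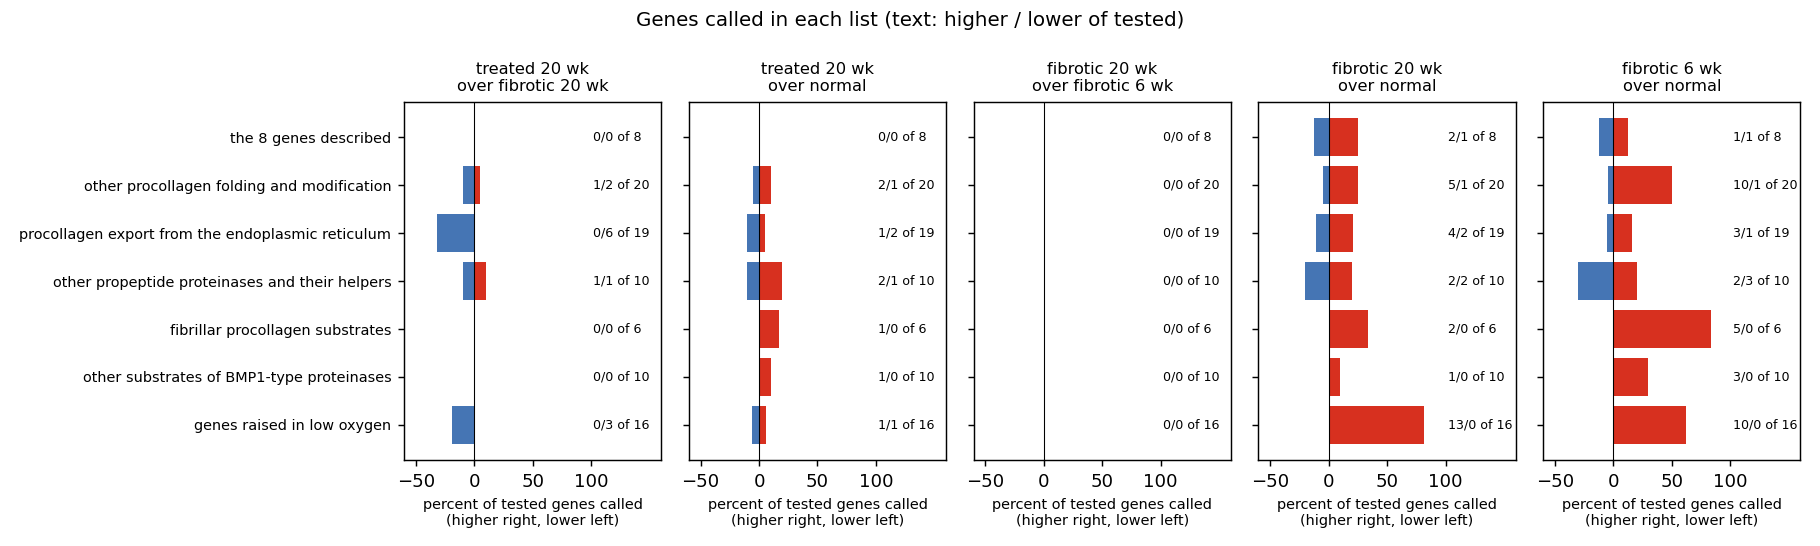
Percent of the tested genes of each list called higher (red, right of 0) and lower (blue, left of 0) in each comparison, with the counts as text. The low-oxygen list has 13 genes called higher in 20-week fibrotic skin and 10 in 6-week fibrotic skin, against 2 and 1 of the 8 genes described.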

How the data were processed

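RNA of macrodissected skin was made into stranded, poly-A-selected libraries and sequenced in paired-end runs of 101 cycles, per the labels' protocols. The authors deposited FPKM values for 23359 genes in 12 libraries. The submitters' processing notes name Cufflinks 2.2.1, TopHat2 2.0.13, Bowtie2 2.2.3, R 3.1.1, SAMtools 1.0, cutadapt 1.7.1, FastQC 0.11.2 and the mm10 assembly. What each tool did, the annotation and any scaling of libraries to each other: not given in the sources used here. Libraries were pooled 5 to a pool with no record of which, so no batch could be tested.

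From these values limma 3.58.1 in R 4.3.3 fitted log2(FPKM + 1) with an intensity trend, 2-sided, for the 13761 genes that reached 1 FPKM in 3 or more libraries. All 12 libraries entered 1 fit, and p-values were adjusted by Benjamini-Hochberg within each of 5 comparisons. The procedure was first tested on simulated data. The 8 genes and all lists were chosen with earlier results of these data known. Other genes are named by rule: collagens, P4hb and Adamts3 always, then up to 3 called genes with the smallest p and no overlap from each list. Genes of like pattern are the 3 with the highest r. Plots and shares used Python 3.11.15. The alternatives tried are a pseudocount of 0.1, other filters, scalings and fits, and leaving out each library.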

Additional observations from a re-analysis of the deposited data

How the results depend on the processing

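Of the 8 genes, the number called in treated against fibrotic skin at 20 weeks was 0 and ran from 0 to 3 with 1 library left out, with 3 only without treated replicate 1. Against normal skin the number called in treated skin was 0 and ran from 0 to 3 with 1 library left out; it was 1, P4ha2, with a pseudocount of 0.1 (1.02, adjusted p = 0.0476) and with median-of-ratios scaling (0.92, adjusted p = 0.0494). In fibrotic against normal skin it was 3 at 20 weeks (1 to 3 with 1 library left out) and 2 at 6 weeks (1 to 4), and 4 at 6 weeks with array weights for each group, where Serpinh1 (adjusted p = 0.0394) and Bmp1 (0.0457) passed. Between 20 and 6 weeks it was 0 in every fit run. A filter at a mean of 5 FPKM and the rescaling left 7 of the 8 genes, without P4ha3. Of the 5 calls among the 8 genes, 37 of 38 values under other settings and 50 of 60 with 1 library left out kept their direction and side of the threshold. With the replicate number as a block 1 gene, P4ha2 in treated against normal skin, was called (adjusted p = 0.0104), and the other 4 counts of called genes among the 8 did not move; libraries that share a number had correlations of deviations from -0.35 to 0.29, and 2 of 12 were nearest to their own number, so the block is not taken as a pairing.

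After rescaling without muscle, hair shaft, cornified-envelope and short RNA genes the difference turned to 0.20 for P4ha1 and 0.14 for Col1a2 in treated against fibrotic skin, and to -0.12 for Serpinh1, -0.25 for Pcolce and -0.10 for Bmp1 in fibrotic skin at 20 weeks against normal; the cause was not tested. With 1 library left out, uncalled differences changed sign within these ranges: in treated against fibrotic skin P4ha1 -0.30 to 0.18, Col1a1 -0.30 to 0.46, Col1a2 -0.52 to 0.19 and Col3a1 -0.37 to 0.52; in treated against normal skin P4ha1 -0.43 to 0.043; between 20 and 6 weeks P4ha2 -0.0067 to 0.47, Col1a1 -0.59 to 0.036 and P4hb -0.17 to 0.088; in fibrotic skin at 20 weeks against normal Serpinh1 -0.0071 to 0.39, Pcolce -0.19 to 0.25 and Col3a1 -0.0080 to 0.88.

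Over all genes, calls in treated against fibrotic skin numbered 2108, 3 with only the 6 libraries compared, 1365 with the block, 1204 with array weights and 3 to 5226 with 1 library left out. In treated against normal skin they numbered 2855, with 138 in 6 libraries, 1311 with array weights and 851 to 3101 with 1 library left out. Between 20 and 6 weeks they numbered 5, with 33 at a mean of at least 5 FPKM, 2 after rescaling, 478 in 6 libraries, 859 with array weights and 4 to 550 with 1 library left out. In fibrotic against normal skin they numbered 4605 (3026 to 5808) at 20 weeks and 5409 (3490 to 6544) at 6 weeks. Higher calls in treated against fibrotic skin made up 75.1% after rescaling, against 29.0% as deposited. The spread within treated skin, a median SD of 0.24 on the log2 scale, exceeded that of fibrotic (0.15 and 0.14 at 20 and 6 weeks) and normal skin (0.15). Without counts, the precision of low genes such as P4ha3 is unknown.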
